A study of Mus musculus with 8 samples.

Results

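Zinc finger genes with mouse symbols between Zfp900 and Zfp999 were followed in the cerebral cortex of fasted and fed mice. The members were every row of the expression table whose symbol is Zfp9 followed by 2 digits, which gave 33 genes, Zfp930 to Zfp964, of 24344 symbols. The range of symbols was singled out because one of them, Zfp950, had far less mRNA in the fasted mice, so Zfp950 was chosen by the contrast described here and its difference is given without a test. The other 32 members were taken for their symbols alone.

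The fasted group was 4 libraries of occipital cortex, which holds the visual areas, from C57BL/6J mice kept without food for 48 h. The control group was 4 libraries of the same tissue from C57BL/6J mice fed ad libitum. All mice were at postnatal day 35, and all RNA came from whole cortex homogenate, so neurons, glia and vessels contributed together. The labels give no genetic change, no sex and no statement that each library is a separate animal, so p-values measure the spread between these libraries.

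Most genes of this kind encode proteins with an array of C2H2 zinc fingers, each of which folds around a zinc ion and contacts a few bases of DNA. In the largest mouse family, the fingers follow a KRAB domain, which recruits the scaffold Trim28 (KAP1). Trim28 in turn brings the histone H3 lysine 9 methyltransferase Setdb1, HP1 proteins and histone deacetylases, and the complex silences retrotransposons and some genes in early embryos and in adult tissues, brain included. The genes lie in tandem clusters that arose by duplication and differ between mouse strains and species, and most members have no described target.

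In the GENCODE M21 transcripts, 32 of the 33 had an open reading frame in a protein-coding transcript, and apart from Zfp957 these frames held 6 to 18 matches to a C2H2 finger pattern, with a median of 11 over all 32 frames. Zfp945 had the most fingers, 18 in 794 residues, and Zfp950 had 17 in 609 residues. A pattern for the core of the KRAB A box was found in some reading frame of 25 members. For the others, Zfp963 and Zfp956 among them, the pattern was not in these transcripts, which says nothing of the domain itself. Zfp939 is annotated as a transcribed pseudogene.

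The promoter of Zfp950 and those of 3 members that fell share stretches of sequence. These 4 are shown because their genes lie on 4 chromosomes, and Zfp931, Zfp932 and Zfp935 moved in the direction of Zfp950. They were thus picked by the same contrast as Zfp950, and nothing on regulation is read from the sequence they share. Each line runs 5′ to 3′ on the gene's own strand and ends at the start site in the RefSeq promoter table (GRCm38.p6). The line of Zfp935 leaves out the 40 bases nearest that site, which lie within the RefSeq span of the gene. The last few bases of the Zfp950 and Zfp932 lines are printed although they also lie within the RefSeq spans. Those spans end at chr19:61140844 for Zfp950 and begin at chr5:109996502 for Zfp932. The Zfp950 stretch is chr19:61140841-61141090 on the minus strand, the Zfp931 stretch chr2:178078426-178078675 on the minus strand, the Zfp932 stretch chr5:109996260-109996509 on the plus strand and the Zfp935 stretch chr13:62466853-62467062 on the minus strand. In Zfp950, capitals mark runs of 12 or more bases found unbroken in at least 1 of the other 3, and in those 3 they mark runs found in Zfp950.
Zfp950: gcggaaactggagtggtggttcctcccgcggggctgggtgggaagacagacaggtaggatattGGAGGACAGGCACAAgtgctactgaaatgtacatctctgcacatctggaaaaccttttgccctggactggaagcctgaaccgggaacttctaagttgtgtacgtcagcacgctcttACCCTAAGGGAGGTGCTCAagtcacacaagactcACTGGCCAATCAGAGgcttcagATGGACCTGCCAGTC
Zfp931: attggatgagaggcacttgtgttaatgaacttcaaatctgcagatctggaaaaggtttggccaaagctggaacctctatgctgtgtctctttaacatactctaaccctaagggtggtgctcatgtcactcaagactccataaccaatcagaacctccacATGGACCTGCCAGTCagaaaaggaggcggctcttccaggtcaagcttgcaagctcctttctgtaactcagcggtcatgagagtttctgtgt
Zfp932: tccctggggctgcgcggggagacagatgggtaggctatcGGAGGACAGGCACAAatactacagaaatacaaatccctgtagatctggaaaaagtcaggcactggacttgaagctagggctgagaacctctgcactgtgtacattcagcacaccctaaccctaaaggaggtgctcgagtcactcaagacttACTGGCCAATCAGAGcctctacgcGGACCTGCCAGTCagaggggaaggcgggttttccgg
Zfp935: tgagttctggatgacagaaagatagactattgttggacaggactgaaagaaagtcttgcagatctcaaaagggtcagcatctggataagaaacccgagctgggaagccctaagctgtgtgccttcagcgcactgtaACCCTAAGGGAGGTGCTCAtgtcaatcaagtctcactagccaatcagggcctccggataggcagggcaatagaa
The longest run, of 19 bases, was shared by Zfp935 and Zfp950. The longest runs that Zfp931 and Zfp932 shared with Zfp950 had 15 bases. Zfp932 held 3 capital runs, and its last, of 13 bases, lies within the stretch that Zfp931 shared. Among the 29 other member promoters found in the RefSeq table (30 of 33 members matched), 5 held a run of 12 or more bases in common with the 250 bases before Zfp950. The other two were those of Zfp958, with 12 bases, which did not pass the test below, and Zfp936, with 13, which was too low to test. Of all 32851 promoters of this length, 0.922% held such a run. The share among promoters of other zinc finger genes, the closer comparison for genes that arose by duplication, is not given here. A CCAAT box (CCAAT on either strand) was found in 20 of the 30 member promoters (66.7%), Zfp950 included, and in 33.8% of all promoters. Zfp950 held a match on each strand, and the one on its own strand lay 32 bases before the start, inside a capital run. An ETS core (CCGGAA on either strand) was found in 14 of the 30 (46.7%), and in 12% of all promoters, but not in Zfp950. Other motifs were also searched on either strand, and none of them was found in Zfp950. An E-box (CACGTG) was in 20% of the 30 and in 6.02% of all promoters. The glucocorticoid receptor motif AGAACA was in 23.3% and 16.1%, and a GC box (GGGCGG) in 30% and 32.7%. A cyclic AMP response element (TGACGTCA) was in 3.33% and 1.55%. These matches describe the letters of the windows and are not evidence of binding.

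Levels were given as FPKM, fragments per kilobase of transcript, scaled to the mapped fragments of the library, and differences as log2(FPKM + 1) in fasted minus ad libitum libraries. Of the 33 members, 28 reached 1 FPKM in at least 4 libraries and entered the test, which was limma fitted on 12377 genes with p-values adjusted by Benjamini and Hochberg. Summed over the 33 members, fasted libraries held 128 to 143.6 FPKM, against 146.6 to 159.9 FPKM in ad libitum libraries, with no overlap. Without Zfp950 the sums were 118.9 to 132.5 FPKM in fasted libraries and 128.4 to 139.7 FPKM in ad libitum libraries, and the groups overlapped.

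Zfp950 lies on chromosome 19, at chr19:61053840-61140840 on the minus strand (mm10). It had 8.64, 9.10, 9.999 and 11.1 FPKM in fasted libraries 1 to 4, against 18.2, 20.4, 20.2 and 21.1 FPKM in ad libitum libraries 1 to 4. Every fasted library was far below the lowest ad libitum library. The means were 9.72 ± 1.099 FPKM in fasted and 19.97 ± 1.26 FPKM in ad libitum libraries (SD, n = 4 each), a ratio of 0.487. The log2 difference was -0.97 (SE 0.076), and it stayed between -1.04 and -0.92 over the 18 other ways of processing the data that were run. Zfp950 was the member with the second highest mean level, 14.8 FPKM, after Zfp932. In tissue homogenate, fewer cells that express a gene and less of its mRNA per cell cannot be told apart.

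Of the 27 other members tested, 8 fell, 2 rose and 17 did not pass an adjusted p of 0.05. The share that fell was 29.6%, beside 16.3% of all tested genes, and the share that rose was 7.41%, beside 9.56% of all tested genes. In either direction, 25.8% of all tested genes passed. Nothing is read from these shares, since the symbols were picked for the fall of one of them. With the replicate number as a block, 9 other members fell and 4 rose, Zfp941 joining those that fell and Zfp938 and Zfp939 those that rose. In that fit 22.1% of all tested genes fell and 14.3% rose. Only 1 member rose without fasted replicate 1, fasted replicate 3 or ad libitum replicate 4. The balance also moved with scaling. Of these 27 members, 8 fell and 2 rose as first fitted, 8 and 4 with median-ratio scaling, 9 and 4 with quantile normalization, and 7 and 7 after correction for the length and GC content of transcripts by offsets. Over all tested genes 1183 rose and 2015 fell, against 1762 and 1935 with median-ratio scaling, 1792 and 1909 with quantile normalization, and 2195 and 2207 with those offsets. The median difference was -0.034 over the 27 tested members other than Zfp950 and -0.024 over all tested genes. With Zfp950, which was chosen for its fall, it was -0.064 over the 28 tested members.

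**Figure D1:**
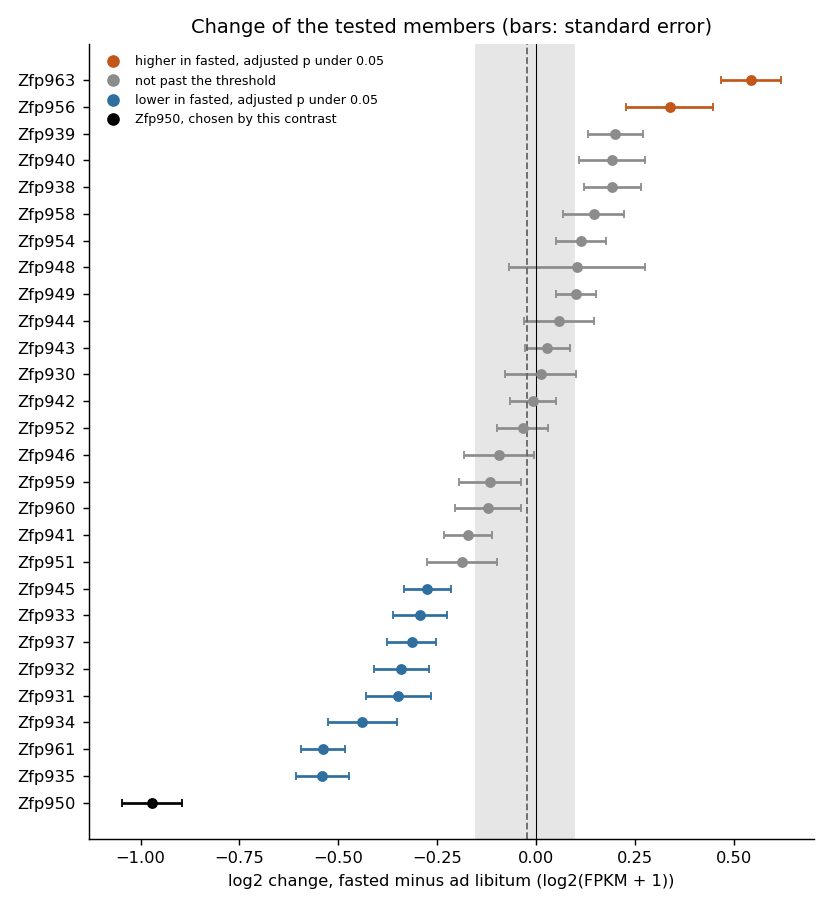
Difference in mRNA level (fasted minus ad libitum, log2(FPKM + 1), x axis) of each of the 28 tested members, with its standard error. The dashed line is the median of all tested genes (-0.02) and the grey band their interquartile range. Zfp950 stands at -0.97, the 8 members that fell lie between -0.54 and -0.28, and Zfp963 and Zfp956 lie at 0.54 and 0.34.

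On the log2(FPKM + 1) scale the largest falls after Zfp950 were in Zfp935 and Zfp961. With a pseudocount of 0.1 the order changed, to -0.75 for Zfp934, -0.68 for Zfp935 and -0.68 for Zfp961. Zfp935, on chromosome 13, had 2.67, 2.36, 2.55 and 2.90 FPKM in fasted libraries 1 to 4, against 4.02, 4.44, 4.08 and 4.50 FPKM in ad libitum libraries 1 to 4 (log2 difference -0.54, SE 0.067, limma adjusted p = 0.000357). Zfp961, on chromosome 8, had 2.48, 2.59, 2.61 and 2.62 FPKM in fasted libraries, against 3.95, 4.33, 4.34 and 4.16 FPKM in ad libitum libraries (-0.54, SE 0.056, limma adjusted p = 0.000144). For both, all fasted values were low and within a narrow range, and the groups did not overlap. Zfp934, a neighbour of Zfp935, had 0.655, 1.08, 1.09 and 0.912 FPKM in fasted libraries, against 1.52, 1.73, 1.45 and 1.76 FPKM in ad libitum libraries (-0.44, SE 0.087, limma adjusted p = 0.00442). The groups again did not overlap, although the gene is near the lower limit of what was tested and the difference on this scale understates the ratio of its means, 0.579.

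Zfp932, on chromosome 5, was the most abundant member. In mouse cells its protein and that of its close relative Gm15446 are known to bind and repress endogenous retroviruses. It had 16.6, 16.8, 19.2 and 19.1 FPKM in fasted libraries, against 22.3, 21.1, 25.5 and 22.8 FPKM in ad libitum libraries (-0.34, SE 0.070, limma adjusted p = 0.00542). All fasted values lay below all ad libitum values, and replicate 3 was highest in both groups. Gm15446, whose transcripts hold 34.9% of the 50-base words of Zfp932, averaged 4.18 ± 0.159 FPKM in fasted and 4.18 ± 0.319 FPKM in ad libitum libraries (SD, n = 4 each, limma adjusted p = 0.978).

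A further 4 members fell. Zfp931, on chromosome 2, had 2.46, 1.79, 1.88 and 2.20 FPKM in fasted libraries, against 2.77, 2.81, 2.83 and 3.26 FPKM in ad libitum libraries (-0.35, SE 0.081, limma adjusted p = 0.00990), and with offsets for GC content and length its adjusted p was 0.0511. Zfp937, on chromosome 2, had 0.917, 0.960, 1.05 and 1.07 FPKM in fasted libraries, against 1.43, 1.51, 1.56 and 1.44 FPKM in ad libitum libraries (-0.32, SE 0.062, limma adjusted p = 0.00432). Both had their lowest ad libitum value above their highest fasted one. Zfp933, on chromosome 4, had 3.69, 3.27, 4.08 and 3.75 FPKM in fasted libraries, against 4.66, 4.55, 4.58 and 5.21 FPKM in ad libitum libraries (-0.29, SE 0.069, limma adjusted p = 0.0103). Zfp945, on chromosome 17, had 2.03, 2.15, 2.31 and 2.17 FPKM in fasted libraries, against 2.85, 2.76, 2.97 and 2.75 FPKM in ad libitum libraries (-0.28, SE 0.059, limma adjusted p = 0.00670). Here too the groups did not overlap. All 8 members that fell had every fasted library below every ad libitum library, and so did Zfp941, which did not pass. That made 9 of the 27 members, beside 16.5% of all tested genes.

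The 2 members that rose differed in how firmly they did so. Zfp963, on chromosome 8, had 3.05, 3.13, 2.96 and 3.15 FPKM in fasted libraries, against 2.01, 1.79, 1.98 and 1.44 FPKM in ad libitum libraries (0.54, SE 0.076, limma adjusted p = 0.000719). The fasted values were tightly grouped and all above the ad libitum ones, and the ratio of the means was 1.70. Zfp956, on chromosome 6, had 6.49, 7.71, 6.23 and 5.82 FPKM in fasted libraries, against 6.01, 5.50, 4.60 and 3.94 FPKM in ad libitum libraries (0.34, SE 0.110, limma adjusted p = 0.0420). Its groups overlapped, since fasted library 4 lay below ad libitum library 1, but within each replicate number the fasted library was higher, and the adjusted p with the replicate block was 0.00438. The call held in 11 of the 18 alternatives. It was lost without fasted replicate 1, 2 or 3 (adjusted p = 0.0744, 0.118 and 0.0709), without ad libitum replicate 3 or 4 (0.108 and 0.0648), with no filter on low values (0.0758) and with a term for odd and even replicate numbers (0.0540). Zfp963 and Zfp949 were the 2 members with every fasted library above every ad libitum one, beside 11.1% of all tested genes.

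**Figure D2:**
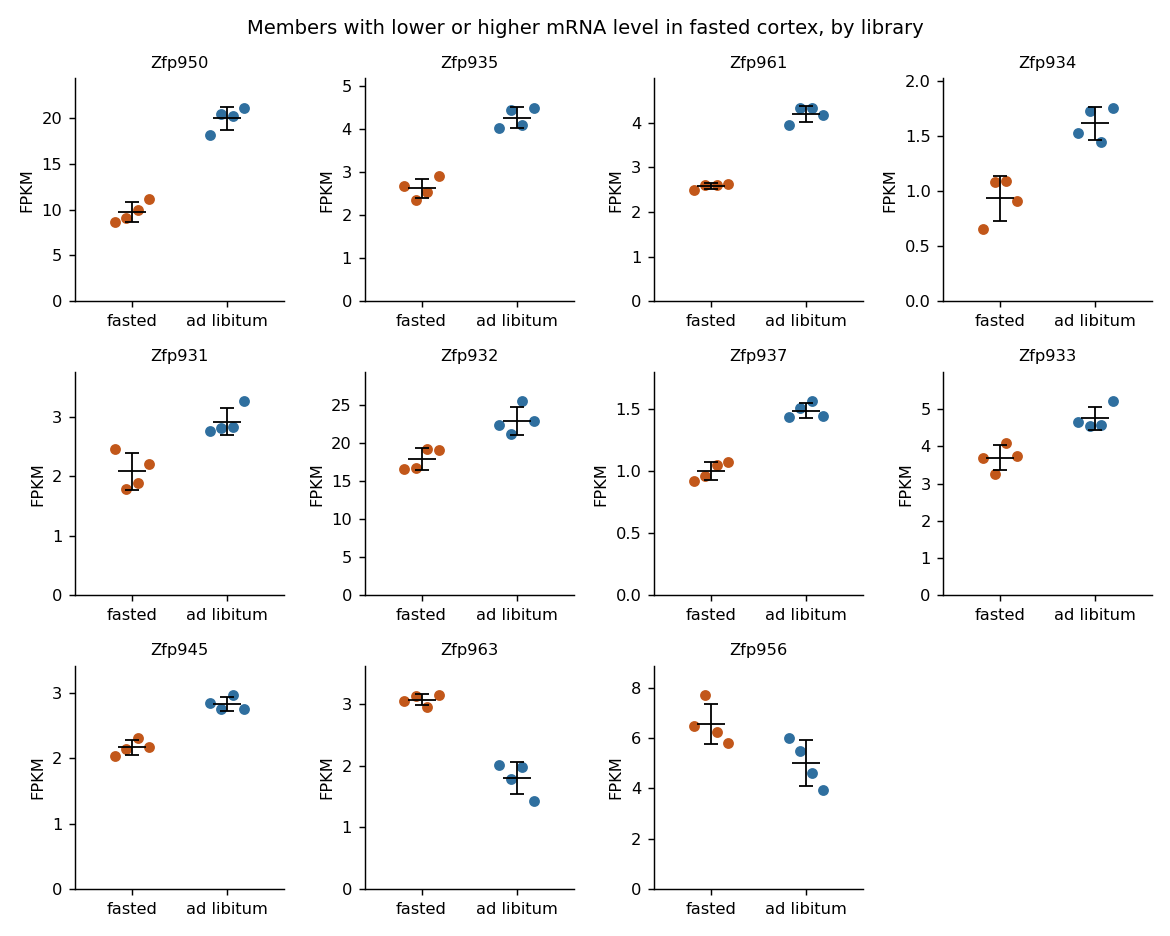
FPKM in each library (points, fasted left and ad libitum right) with mean and SD (bars) for Zfp950, the 8 other members that fell and the 2 that rose. The axis of each panel starts at 0. Only Zfp956 shows overlap between the groups.

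The 17 members that did not pass include several of the more abundant ones. Zfp943, with a mean of 7.92 FPKM over all libraries, had 8.30, 7.40, 8.47 and 7.89 FPKM in fasted libraries and 7.85, 7.99, 8.13 and 7.36 FPKM in ad libitum libraries (0.03, SE 0.057, limma adjusted p = 0.747). Its groups interleaved, and the difference was smaller than its error. Zfp948, with a mean of 7.13 FPKM, had 6.53, 5.75, 8.30 and 8.93 FPKM in fasted libraries and 4.91, 5.73, 7.80 and 9.07 FPKM in ad libitum libraries (0.10, SE 0.171, limma adjusted p = 0.690). It varied most within groups, with a residual SD of 0.31 on the log2 scale against a median of 0.11 over the tested members. Replicates 3 and 4 were high in both groups. The difference was -0.03 without ad libitum replicate 1.

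Other members lay near the threshold. Zfp938 had 8.57, 7.91, 8.71 and 9.32 FPKM in fasted libraries and 6.57, 7.69, 8.27 and 7.22 FPKM in ad libitum libraries (0.19, SE 0.072, limma adjusted p = 0.0699). Only fasted library 2 lay within the ad libitum range. Its adjusted p was 0.0431 with the replicate block, 0.0422 with median-ratio scaling, 0.0433 with quantile normalization, 0.00604 with offsets for length and GC content and 0.0471 without ad libitum replicate 3. The pseudogene Zfp939 had 3.45, 3.28, 3.63 and 3.18 FPKM in fasted libraries and 2.82, 3.22, 2.75 and 2.51 FPKM in ad libitum libraries (0.20, SE 0.070, limma adjusted p = 0.0569). Here only fasted library 4 lay within the ad libitum range. For Zfp939 the adjusted p was 0.0438 with the replicate block, 0.0189 with median-ratio scaling, 0.0139 with quantile normalization, 0.00770 with the offsets and 0.0323 without ad libitum replicate 2. Zfp941 had 6.96, 6.74, 6.65 and 6.08 FPKM in fasted libraries and 7.36, 8.28, 7.31 and 7.32 FPKM in ad libitum libraries (-0.17, SE 0.061, limma adjusted p = 0.0576, 0.0343 with the replicate block and 0.0446 with quantile normalization). Zfp940 averaged 6.34 ± 0.855 FPKM in fasted and 5.39 ± 0.298 FPKM in ad libitum libraries (SD, n = 4 each, limma adjusted p = 0.114), and its adjusted p was 0.0133 without fasted replicate 2 and 0.0392 with the offsets. Zfp949, Zfp954 and Zfp958 had differences of 0.10, 0.11 and 0.15, with limma adjusted p of 0.168, 0.206 and 0.190, and passed only with offsets for GC content and length, Zfp954 only when the replicate block was added. The remaining 8 uncalled members, Zfp930, Zfp942, Zfp944, Zfp946, Zfp951, Zfp952, Zfp959 and Zfp960, had differences between -0.19 and 0.06 and passed under none of the alternatives run.

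The 5 members not tested were Zfp964, Zfp947, Zfp953, Zfp957 and Zfp936. The highest of these were Zfp964 with a mean of 0.730 FPKM over all libraries, Zfp947 with 0.604 FPKM and Zfp953 with 0.266 FPKM. Zfp957 averaged 0.0262 FPKM, and Zfp936 was listed at 0 in 7 of the 8 libraries. In each of the 5 the groups overlapped.

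The members lay on 12 chromosomes, with 10 on chromosome 17 and 5 each on chromosomes 7 and 8. Joining neighbouring members whose lower coordinates lie within 1 Mb of each other gave 3 clusters with 12 members. The falls and rises in the clusters stand beside 16.3% of all tested genes that fell and 9.56% that rose. On chromosome 13 both clustered members, Zfp935 and Zfp934, fell. On chromosome 17 the cluster runs over 1300 kb (chr17:21567008-22867134) and holds Zfp948, Zfp942, Zfp943, Zfp947, Zfp944, Zfp946 and Zfp945. Of its 6 tested members, Zfp945, at the far end, fell and the other 5 did not pass. Of 4 other tested genes in that span, Zfp760 (-0.21, SE 0.071, limma adjusted p = 0.0487) and Gm16386 (-0.60, SE 0.142, limma adjusted p = 0.0110) fell, and Gm10509 and Zfp758 did not pass. Among the alternatives run, Zfp760 kept its call only with the replicate block, with the rows of repeated symbols summed and without fasted replicate 4, and without each of the other libraries in turn its adjusted p was 0.0532 to 0.129. Gm10509 passed without ad libitum replicate 1 (adjusted p = 0.0382). Gm16386, the nearest tested gene to Zfp945 within the span, averaged 1.21 ± 0.543 FPKM in fasted and 2.28 ± 0.285 FPKM in ad libitum libraries (SD, n = 4 each).

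The cluster on chromosome 8 runs over 541 kb (chr8:69209038-69749970) and holds Zfp930, Zfp964 and Zfp963. Zfp963 rose, Zfp930 was at 3.14 ± 0.512 FPKM in fasted and 3.09 ± 0.241 FPKM in ad libitum libraries (SD, n = 4 each, limma adjusted p = 0.937), and Zfp964 was too low to test. Among 4 other tested genes there, Gm10033 fell (-0.35, SE 0.098, limma adjusted p = 0.0239) and D130040H23Rik, Zfp868 and Zfp869 did not pass. Gm10033 lost its call without fasted replicate 1 or 3 or ad libitum replicate 2 or 3 (adjusted p of 0.0517 to 0.0708), and Zfp868 passed without fasted replicate 1 (adjusted p = 0.0266). Zfp869, the nearest tested gene to Zfp963 within the span, had a difference of 0.15 (SE 0.062, limma adjusted p = 0.0895). Its adjusted p was 0.0341 with the replicate block and 0.0419 without fasted replicate 4. It was 0.0274 with median-ratio scaling, 0.0331 with quantile normalization and 0.00448 with GC and length offsets. Genes beyond the span were not examined. Neighbouring members thus differed in direction or in passing the test in the chromosome 17 and chromosome 8 clusters. Whether the difference varies between neighbours was not tested.

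**Figure D3:**
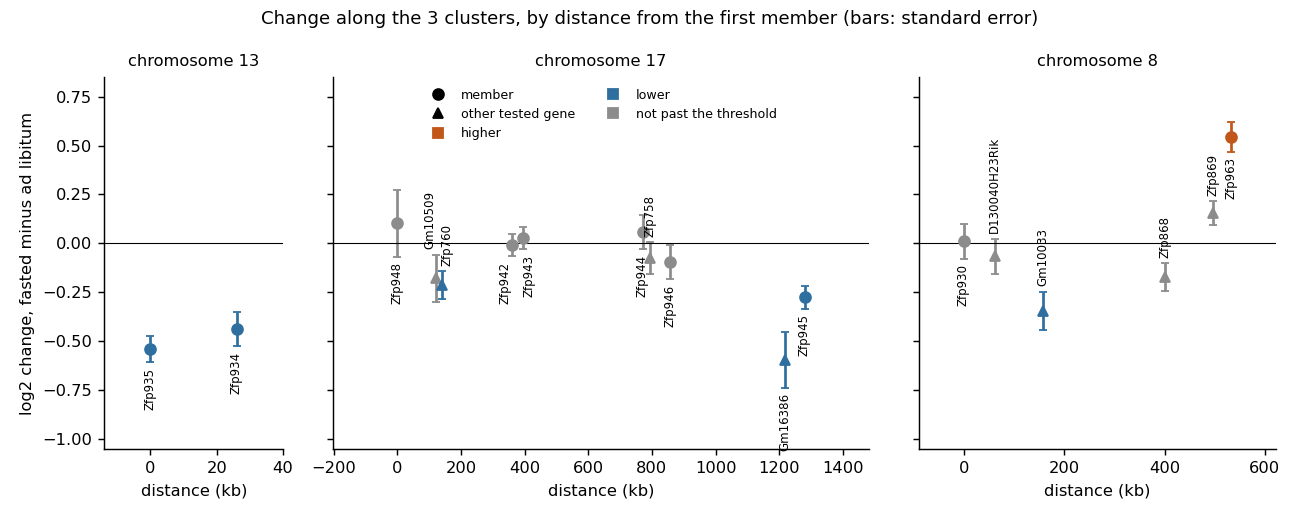
Difference in mRNA level (y axis, fasted minus ad libitum, log2(FPKM + 1), with standard error) of each tested gene by its distance in kb from the first member of its cluster (x axis). Circles are members and triangles other tested genes. In the chromosome 17 cluster Zfp945 at the right end stands below the members to its left, and in the chromosome 8 cluster Zfp963 alone stands well above 0.

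Around Zfp950, 6 other tested genes have their lower coordinate within 250 kb of that of Zfp950. On the minus strand this coordinate is the 3′ end of Zfp950, so the distances are not between start sites. Among the 6 genes, Grk5, Csf2ra and Sfxn4 fell, beside 16.3% of all tested genes. Whether these falls are linked to that of Zfp950, which was chosen for its fall, was not tested. Grk5, a kinase of G protein coupled receptors that overlaps Zfp950 on the opposite strand, had 2.12, 1.90, 2.32 and 1.80 FPKM in fasted libraries, against 3.45, 3.63, 3.74 and 3.47 FPKM in ad libitum libraries (-0.60, SE 0.069, limma adjusted p = 0.000273). The groups did not overlap. Csf2ra, a subunit of the receptor for granulocyte-macrophage colony stimulating factor, averaged 4.09 ± 0.421 FPKM in fasted and 6.23 ± 0.380 FPKM in ad libitum libraries (SD, n = 4 each, -0.51, limma adjusted p = 0.000730). Sfxn4, a mitochondrial sideroflexin, averaged 2.16 ± 0.205 FPKM in fasted and 2.89 ± 0.138 FPKM in ad libitum libraries (SD, n = 4 each, -0.30, limma adjusted p = 0.00790). Fam45a, Prdx3 and Gm7102 did not pass, with differences of -0.04, -0.05 and -0.09. The 2 genes overlap over 42129 bases (chr19:61053840-61095968), which hold 925 exon bases of Zfp950 and 5410 of Grk5, and in GENCODE M21 their exons share no base, so reads from annotated exons differ in position. Whether counting used strand is not given in the sources used here, and the part of reads from the introns of the overlap in either value was not tested.

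**Figure D4:**
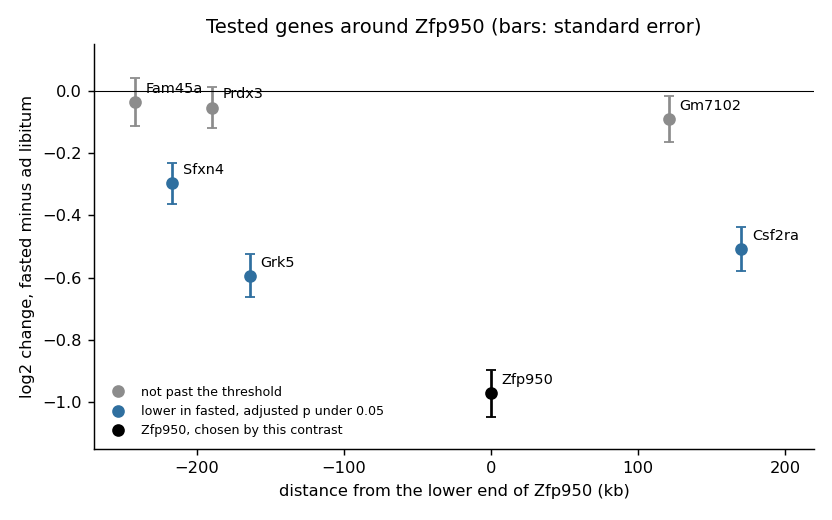
Difference in mRNA level (y axis, fasted minus ad libitum, log2(FPKM + 1), with standard error) of the tested genes around Zfp950. The x axis is the distance in kb between lower coordinates, up to 250 kb. Zfp950 is at -0.97, Grk5 at -0.60, Csf2ra at -0.51 and Sfxn4 at -0.30, while Fam45a, Prdx3 and Gm7102 lie within 0.1 of 0.

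Several members resemble other genes closely enough that reads could be assigned to either. Between 20.4% and 81.4% of the 50-base words of 5 tested members occur in transcripts of other genes in the table, in the order Zfp931, Zfp934, Zfp937, Zfp932 and Zfp960. The first 4 fell and Zfp960 did not pass, so 4 of the 8 falls are of genes with such partners. The other 4, Zfp935, Zfp961, Zfp933 and Zfp945, and both members that rose share at most 20% with other genes in the table, and for Zfp950 the figure is 0.815%. Counting genes that the table does not list, 100% of the words of Zfp935 occur elsewhere, with 99.2% in Gm49359. For Zfp963 39.4% do, with 38.7% in Gm20422, which overlaps it on the same strand. Zfp808, which holds 14.4% of the words of Zfp934, averaged 0.543 ± 0.110 FPKM in fasted and 0.902 ± 0.240 FPKM in ad libitum libraries (SD, n = 4 each) and was not tested. Zfp442, the partner of Zfp937, averaged 0.817 FPKM in fasted and 1.02 FPKM in ad libitum libraries and was not tested. Zfp97, which holds 81.4% of the words of Zfp960, averaged 0.850 FPKM in fasted and 1.07 FPKM in ad libitum libraries and was not tested. Names also differ between annotations. RefSeq places Zfp935 at chr13:62453016-62466852, a stretch that GENCODE M21 gives to Gm49359, and there Zfp935 and Zfp934 do not overlap, whereas in M21 they overlap by 78685 bases on the same strand. Zfp956 overlaps the pseudogene Zfp783 by 2524 bases on the same strand, and Zfp783 did not pass (0.03, SE 0.079, limma adjusted p = 0.783).

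The genes through which KRAB zinc finger proteins act were examined as 5 lists. Over the 5 lists, 8 of 55 tested genes rose (14.5%, beside 9.56% of all tested genes) and 4 fell (7.27%, beside 16.3%). The replicate block gave 13 that rose (23.6%, beside 14.3% of all tested genes) and 5 that fell (9.09%, beside 22.1%). With median-ratio scaling 13 rose (23.6%, beside 14.2% of all tested genes) and 4 fell (7.27%, beside 15.6%). In these lists 2 genes fell without ad libitum replicate 2 or ad libitum replicate 3. Of 19 tested genes of the Trim28 corepressor, 4 rose (21.1%, beside 9.56% of all tested genes) and 3 fell (15.8%, beside 16.3%). Atf7ip, a partner of Setdb1, rose (0.27, SE 0.056, limma adjusted p = 0.00586), as did Chd4 and Mta2, subunits of the NuRD remodelling and deacetylase complex (0.21 and 0.25), and Setdb1 (0.18, SE 0.051, limma adjusted p = 0.0232). Cbx1, which encodes HP1 beta, averaged 12.6 ± 0.320 FPKM in fasted and 16.9 ± 0.794 FPKM in ad libitum libraries (SD, n = 4 each; difference -0.39, limma adjusted p = 0.000488). The deacetylases Hdac1 and Hdac2 fell by 0.24 and 0.18. The calls of Setdb1, Hdac1 and Hdac2 did not hold without 1 of several libraries: those of both deacetylases were lost without ad libitum replicate 2 (adjusted p = 0.0570 for Hdac1 and 0.0511 for Hdac2) or replicate 3 (0.0517 and 0.0614), and that of Setdb1 without fasted replicate 1, 3 or 4 or ad libitum replicate 1 or 3 (0.0526 to 0.0679). Hdac1 also lost its call without fasted replicate 4 or ad libitum replicate 1 (0.0512 and 0.0525), and Hdac2 without fasted replicate 3 (0.0538). Trim28 itself averaged 25.2 ± 2.47 FPKM in fasted and 22.3 ± 0.888 FPKM in ad libitum libraries (SD, n = 4 each), with a limma adjusted p of 0.0917. Its adjusted p was 0.0249 with the replicate block and 0.0318 without fasted replicate 3. It was 0.0325 with median-ratio scaling, 0.0360 with quantile normalization, 0.0138 with GC and length offsets and 0.0167 with these offsets and the block.

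In the HUSH and MORC list 1 of 6 tested genes fell (16.7%, beside 16.3% of all tested genes). This was Fam208a, which encodes the HUSH subunit TASOR (-0.32, SE 0.069, limma adjusted p = 0.00701). Of 16 tested genes of H3 lysine 9 methylation and its removal, 3 rose (18.8%, beside 9.56% of all tested genes). They were the demethylases Kdm3a (0.44, SE 0.059, limma adjusted p = 0.000562) and Kdm4b (0.23) and the methyltransferase Suv39h1 (0.22). Suv39h1 lost its call without any 1 library other than fasted replicate 4 or ad libitum replicate 2 (adjusted p of 0.0551 to 0.0776). Of 8 tested genes of DNA methylation 1 rose (12.5%, beside 9.56% of all tested genes). It was Tet2, an oxidase of methylcytosine, with 10.2 ± 0.650 FPKM in fasted and 6.42 ± 0.198 FPKM in ad libitum libraries (SD, n = 4 each, 0.59, limma adjusted p = 9.59e-05). None of 6 tested zinc finger genes listed as guides of Trim28 passed in limma with or without the replicate block. The smallest adjusted p among them were 0.0898 for Zfp809, which recognises the primer binding site of murine leukaemia virus, and 0.224 for Zfp429. Without fasted replicate 3 Zfp809 had an adjusted p of 0.0395.

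Zinc finger genes with other numbers gave a comparison within the same naming system. Of 255 tested of 304, 26 rose (10.2%, beside 9.56% of all tested genes) and 25 fell (9.8%, beside 16.3%). Without ad libitum replicate 3, 15 fell (5.88%, beside 11.4% of all tested genes in that fit). The median difference was -0.034 for the 27 tested members other than Zfp950, against 0.005 for these genes. With offsets for GC content and length the medians were 0.011 and 0.032, so the sign of the members' median depended on these offsets. It was -0.011 with median-ratio scaling and -0.002 with quantile normalization. No test of this difference was made.

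**Figure D5:**
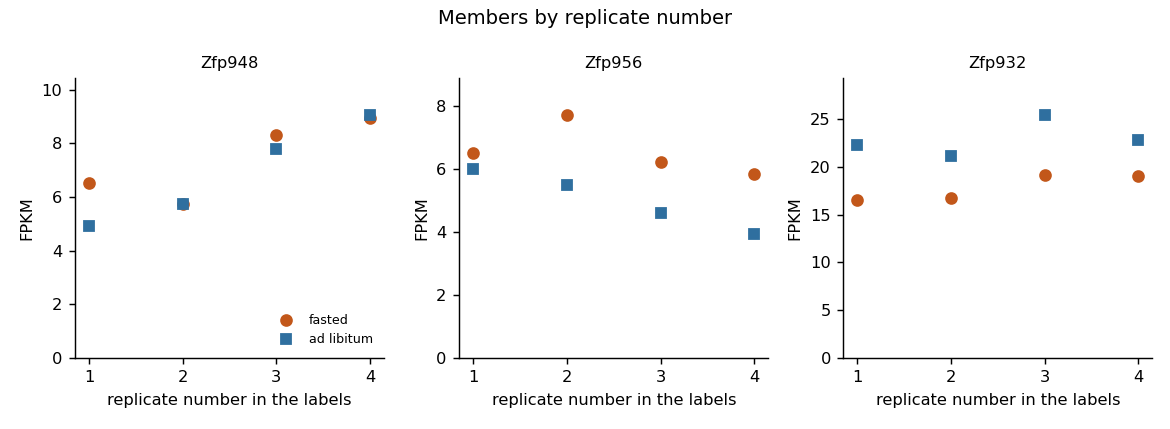
FPKM of Zfp948, Zfp956 and Zfp932 (y axis, from 0) by the replicate number in the labels (x axis), fasted as circles and ad libitum as squares. Zfp948 is high in replicates 3 and 4 of both groups, Zfp956 is higher in the fasted library of every number, and Zfp932 is lower in the fasted library of every number.

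Across all libraries, the estimated depth was 17100000 to 21400000 fragments, at which a 2 kb transcript at 1 FPKM is covered by 34.2 to 42.8 fragments. The estimate is read from the spacing of low values and is uncertain. Summed over all rows, ad libitum library 2 held 640016.8 FPKM, against 254085.8 to 308028.1 FPKM in the other libraries. The cause of this higher sum was not tested. Libraries numbered 1 and 3 held Y-linked transcripts and those numbered 2 and 4 held Xist, except that ad libitum library 3 held both, with 32.2 FPKM of Xist and 5.67 FPKM of Ddx3y. Without that library 8 of the 27 members other than Zfp950 fell and 2 rose, and of the 10 called with all libraries 9 were called again. Counts for the marker genes of cell types stand beside 16.3% of all tested genes that fell and 9.56% that rose. Of the microglial genes 4 of 6 fell, with sums of 58.9 to 63.9 FPKM in fasted and 69.0 to 89.6 FPKM in ad libitum libraries. In the list for oligodendrocyte precursors 3 of 6 fell (50.9 to 57.4 FPKM in fasted and 61.6 to 67.7 FPKM in ad libitum libraries), as did 3 of 6 for astrocytes (472.6 to 528.3 FPKM in fasted and 453.3 to 524.8 FPKM in ad libitum libraries) and 3 of 6 for excitatory neurons (1697 to 1966 FPKM in fasted and 1661 to 2085 FPKM in ad libitum libraries). The excitatory and inhibitory neuronal markers Slc17a7 and Gad1 stood at 406 ± 31.6 and 74.6 ± 3.83 FPKM in fasted libraries and at 406 ± 39.0 and 67.6 ± 4.24 FPKM in ad libitum libraries (SD, n = 4 each). In the other lists 1 of 6 endothelial and 1 of 5 meningeal genes fell, 1 of 6 oligodendrocyte genes rose, 0 of 6 inhibitory neuron genes and 0 of 3 blood genes passed in limma, and the choroid plexus genes were too low to test. The replicate block gave 5 microglial falls, 2 rises and 1 fall among oligodendrocyte genes, and 1 rise each among inhibitory neuron, astrocyte and oligodendrocyte precursor genes, with no other change in these counts. The part of cell types in the differences of the zinc finger genes was not tested.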

How the data were processed

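The data were 8 RNA-seq libraries, grouped by the treatment label and numbered by title. The deposited values are FPKM per gene symbol in 1 table of 24883 rows; per the submitters' processing notes the authors used TopHat and mm10. Not given in the sources used here are the TopHat version, the quantifier, its annotation and whether strand was kept. Where a symbol had several rows, the one with the highest mean was used.

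A count test was planned if the unit allowed it; for FPKM, limma 3.58.1 (R 4.3.3) was fitted with group as the only term on log2(FPKM + 1), keeping genes that reached 1 FPKM in 4 or more libraries. Calls were at a Benjamini-Hochberg adjusted p under 0.05. Differences on this scale understate the change of low genes. The fit was tested on simulated data. Tables were made with pandas 2.3.3 in Python 3.11.15, and figures with matplotlib 3.10.9.

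The members and the lists were chosen with earlier results of these data known. Members named were Zfp950, all that passed, the 5 most abundant, those whose call changed under an alternative and the highest of those not tested; from each silencing list, up to 4 called genes with the smallest p, or the 2 smallest p where none passed. Tested genes whose lower coordinate lies within 250 kb of that of Zfp950 were also named. Trim28, Setdb1, Hdac1, Hdac2 and the genes named as cluster neighbours or sequence partners were added after their values were seen.

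Positions, 50-base words and reading frames came from GENCODE M21 (GRCm38, the assembly of mm10), and promoters from RefSeq (GRCm38.p6). Depth was estimated from FPKM times length in genes with 1 transcript, where the densest low value was taken as 1 fragment (137 to 169 genes per library).

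Same-numbered libraries deviated together from their group means, at correlations of 0.574, 0.496, 0.382 and 0.523 for numbers 1 to 4 across all tested genes and 0.543, 0.501, 0.425 and 0.518 across 11491 autosomal genes (genes are not independent replicates). The numbers were therefore taken to pair the libraries, which rests on these values alone, and the block was fitted as an alternative to the main fit. Alternatives changed the pseudocount, filter, scaling, GC and length offsets, repeated symbols, a term for odd and even numbers, the replicate block, or left out 1 library.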

Additional observations from a re-analysis of the deposited data

Results flagged for a closer look

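Among the 56 groups of 4 libraries searched over the 28 tested members, 2 held a library far from the other 3 by Dixon's ratio of gap to range against its 95% critical value, and chance gives about 1 in 20. Zfp931 in ad libitum library 4 was at 3.26 FPKM, with the other 3 between 2.77 and 2.83 FPKM, a ratio of 0.866. Zfp941 in ad libitum library 2 was at 8.28 FPKM, with the other 3 between 7.31 and 7.36 FPKM, a ratio of 0.946.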

How the results depend on the processing

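Leaving out 1 library in turn, 8 of the 27 members other than Zfp950 fell each time and 1 to 3 rose, beside 8 and 2 with all libraries. The ranges over these fits were 841 to 1196 rises and 1406 to 2572 falls among all tested genes, 18 to 27 rises and 15 to 29 falls among other numbered Zfp genes (26 and 25 with all libraries), and 6 to 9 rises and 2 to 5 falls in the silencing lists (8 and 4 with all libraries). The lowest falls were 15 without ad libitum replicate 3, and 2 in the silencing lists without ad libitum replicate 2 or 3. The members that rose were 1 without fasted replicate 1, fasted replicate 3 or ad libitum replicate 4. The difference of Zfp948 ran from -0.025, without ad libitum replicate 1, to 0.231, without ad libitum replicate 4. Among other genes that did not pass, those with small differences changed sign. With 1 library left out, differences ran from -0.026 to 0.043 for Gm15446, from -0.026 to 0.090 for Zfp783, from -0.122 to 0.008 for D130040H23Rik and from -0.088 to 0.017 for Fam45a. Fam45a was at 0.015 with GC and length offsets, and Prdx3 at 0.019 with these offsets, with or without the block.

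Rising members numbered 1 with no filter or with odd and even numbers as a term, 4 with median-ratio scaling, quantile normalization or the replicate block, 7 with GC and length offsets and 8 with these and the replicate block. Rises over all tested genes were 1792 with quantile normalization, 2195 with the offsets and 2542 with the offsets and the block. Rises in other numbered Zfp genes were 40 with the offsets and 43 with the block added. In the silencing lists, rises were 13 with median-ratio scaling, 14 with quantile normalization, 14 with the offsets, 13 with the replicate block and 17 with the block and the offsets. Of the 10 members called besides Zfp950, 9 or 10 were called again under each of the 18 alternatives. The causes were not tested. The block changed no other call among the members than those given beside the results.

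Members near 1 FPKM rest on about 34.2 to 42.8 fragments per library for a 2 kb transcript, at an uncertain depth.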
